A study of Mus musculus with 6 samples.

Results

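The oligoadenylate synthetase (OAS) family was followed in mouse adipose-derived stem cells (ADSC), stromal cells grown from fat tissue. It was represented by 8 named genes, Oas1a, Oas1b, Oas1c, Oas1g, Oas2, Oas3, Oasl1 and Oasl2, out of 56748 genes in the count table, and these members were found by gene symbol. RNA sequencing covered 3 libraries labelled as overexpressing the integrins VLA-4 and LFA-1 together, and 3 libraries labelled mock. The stated aim was to learn how expressing both integrins changes the transcriptome of these cells. The labels describe the mock cells in 3 ways, as carrying an empty vector, as unmodified and as wild type. All cultures are described as mesenchymal stem cells in normal-glucose medium with serum. Age, sex, strain, the transducing vector and promoter, and the origin of replicates in separate cultures or animals, were not given in the sources used here. P-values thus measure the spread between libraries, which may be technical.

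As background, OAS proteins bind double-stranded RNA, a mark of viral infection, and join ATP into short chains with 2′-5′ bonds called 2-5A. These chains are a second messenger of the antiviral response. Most OAS genes are interferon-stimulated genes: interferon activates a complex that holds Stat2 and Irf9 and binds an interferon-stimulated response element (ISRE) in their promoters. In the mouse, Oas1 has expanded into a row of paralogs, of which Oas1a and Oas1g encode active synthetases.

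Promoters of 6 of the 8 members were in the RefSeq table of mouse build GRCm38.p6, each with 250 bases before the start site and 50 after it. Oas1b and Oas2 had no entry. An ISRE core, spelled GAAA-NN-GAAA and searched on both strands, lay in 4 of the 6 promoters (Oas1a, Oas1c, Oas1g and Oas3), against 3.44% of all 32851 promoters in the table. The sequences below are the 120 bases before each of these start sites, shown because they hold the matched letters. Capitals mark the ISRE core in Oas3 and, in the others, the 16 bases in which a pair of overlapping cores lie. Oas1a and Oas1g are on the minus strand at chr5:120907526-120907645 and chr5:120887614-120887733, and Oas3 is on the minus strand at chr5:120777660-120777779. The Oas1c window, chr5:120812515-120812634, is printed on the plus strand, opposite to the gene.
Oas1a: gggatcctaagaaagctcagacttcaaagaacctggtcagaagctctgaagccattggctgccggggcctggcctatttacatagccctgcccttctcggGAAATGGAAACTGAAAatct
Oas1g: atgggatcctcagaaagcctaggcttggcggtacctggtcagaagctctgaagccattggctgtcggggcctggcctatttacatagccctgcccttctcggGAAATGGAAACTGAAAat
Oas3: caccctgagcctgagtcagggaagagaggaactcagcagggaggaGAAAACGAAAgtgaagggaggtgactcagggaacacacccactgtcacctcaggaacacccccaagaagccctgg
Oas1c, other strand: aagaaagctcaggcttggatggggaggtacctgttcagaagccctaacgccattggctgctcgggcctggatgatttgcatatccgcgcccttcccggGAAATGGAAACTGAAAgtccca

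The same 16 letters, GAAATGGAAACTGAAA, stood in Oas1a, Oas1g and Oas1c. These letters were taken from the Oas1a promoter, so their presence there was fixed. They were held by 7 of the 32851 entries in the table (0.0213%). That share was not compared with the share for other stretches of 16 bases. The other entries with these letters belonged to Apol9a and Apol9b, a pair of apolipoprotein L genes with several entries each. Counted from the start site, the element ran from base -20 to -5 in Oas1a and from -18 to -3 in Oas1g. In Oas1c it ran from -114 to -99 on the opposite strand. Oas1c and Oas1b are transcribed away from each other, with 120 bases between their start sites in the deposited mm39 coordinates. Measured from the Oas1b start of the GENCODE M21 annotation (GRCm38), the element of the Oas1c window lay at bases -22 to -7 on the strand of Oas1b, close to where it lay in Oas1a and Oas1g. Oas3 held a single core at -75 to -66. A second motif, the GAS letters TTCNNNGAA known from genes that respond to interferon gamma, was in 1 of the 6 promoters (Oas1a, -98 to -90), against 8.3% of all promoters. Neither spelling was found in the windows of Oasl1 and Oasl2. The promoters of Oas1a and Oas1g were nearly alike along their whole length, with 261 identical bases, 87.0% of the 300. The other pairs of members had 54.0% to 60.0%, in alignments that needed 78 to 128 gaps. Each promoter was aligned on the strand of its gene only. The likeness of the Oas1c window, read on the other strand, to Oas1a and Oas1g was therefore not measured.

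**Figure D1:**
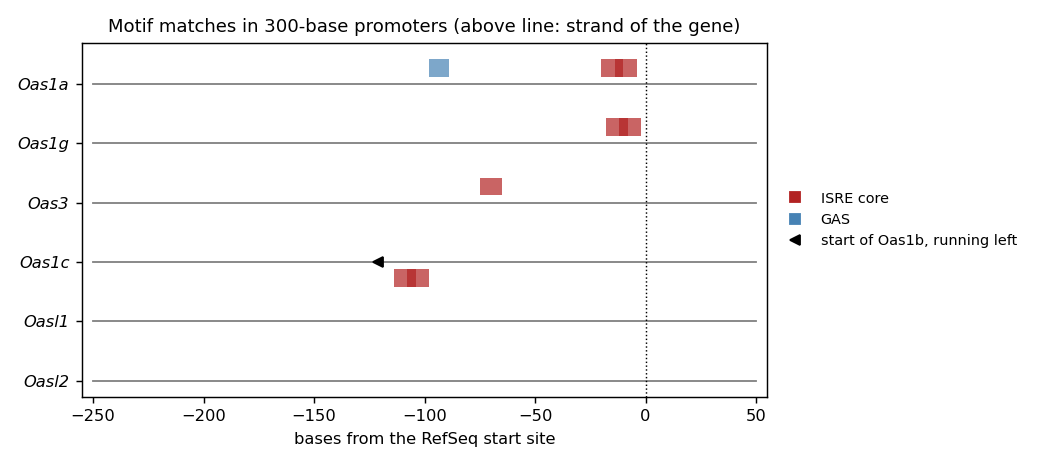
Positions of ISRE core (red) and GAS (blue) matches in the 6 member promoters, in bases from the RefSeq start site, drawn above the line for the strand of the gene and below it for the other strand. The cores of Oas1a and Oas1g end within a few bases of the start, and those in the Oas1c window lie beside the black arrowhead that marks the start of Oas1b.

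Library totals were 15723888 to 18185832 counts in the libraries labelled overexpressing and 16904703 to 18381083 in those labelled mock, so 3 counts in a library equalled 0.160 to 0.185 CPM (counts scaled by depth and TMM factors). The subunit genes of the transduced integrins did not follow the label. Itga4 averaged 2.51 ± 0.279 CPM in libraries labelled overexpressing and 6.51 ± 1.48 CPM in libraries labelled mock (SD, n = 3 each), and Itgb1 averaged 2228 ± 123 CPM in libraries labelled overexpressing and 2784 ± 44.6 CPM in libraries labelled mock. Itgal had 7 counts in all in each group, and Itgb2 had 15 in libraries labelled overexpressing and 38 in libraries labelled mock. Every direction below is therefore a difference between libraries by label. Whether the labels were exchanged, or the transduced sequences were not counted, was not tested; if the labels were exchanged, each direction would be reversed. Stromal markers Pdgfra and Cd44 were present in all libraries at levels that were not called different, while 7 of the 10 stromal markers were lower in the libraries labelled overexpressing. The summed level of the stromal markers was 9506 to 10935 CPM there and 18544 to 19690 CPM in the libraries labelled mock, and Nt5e was near 0 throughout. Col1a1 made up most of that sum, and without it the stromal markers summed to 4371 to 4583 CPM in the libraries labelled overexpressing and 5994 to 6079 CPM in those labelled mock.

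All 8 members passed the low-count filter, and all 8 were lower in the libraries labelled overexpressing, with 0 higher (edgeR quasi-likelihood test, Benjamini-Hochberg adjusted p under 0.05). Among all 14502 genes tested, 23.0% were lower and 22.3% higher by the same call, 45.3% in either direction. The median log2 fold change of the members, labelled overexpressing minus labelled mock, was -4.26, with a range of -5.94 to -1.13, beside a median of 0.005 over all genes tested. The groups did not overlap for any member, a pattern seen with the same direction in 26.5% of genes tested. A called log2 fold change of -2 or less was found for 7 of the 8 members, against 1.41% of genes tested. Oas1g, Oas2 and Oas3 met the filter through the mock libraries alone and so could enter the test only with a high level there. In bulk RNA, fewer cells expressing these genes and less RNA per cell cannot be told apart. The summed level of the family was 13.1, 14.8 and 15.3 CPM in the libraries labelled overexpressing and 303, 247 and 300 CPM in those labelled mock.

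**Figure D2:**
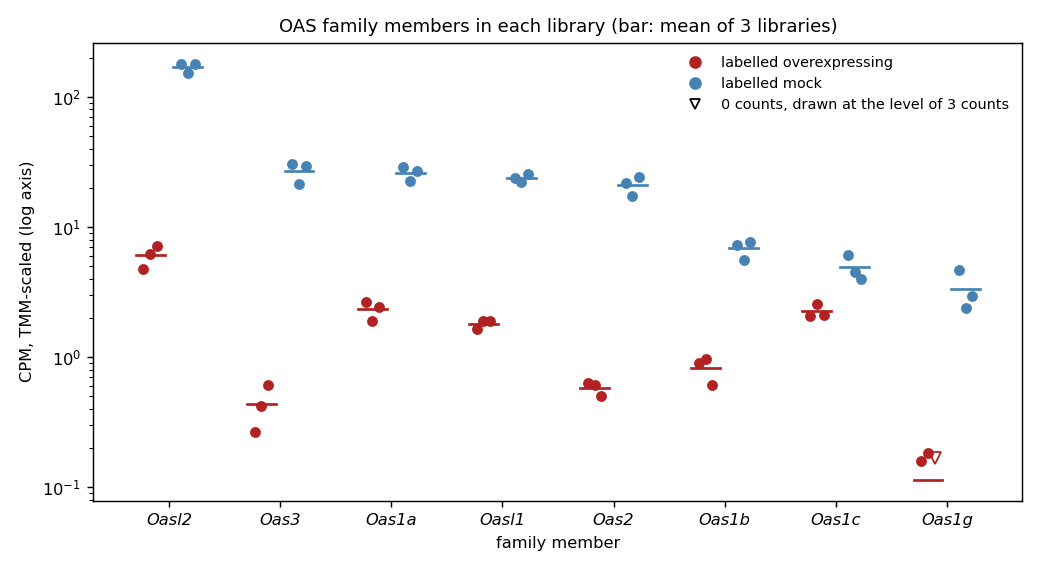
CPM (log axis) of each member in each library, labelled overexpressing in red and labelled mock in blue, with a bar at the mean of 3 libraries; the open triangle is a library with 0 counts drawn at the level of 3 counts. The red points lie below the blue points for all 8 members, with the narrowest gap for Oas1c.

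Oas1a encodes an active synthetase and had the highest mean FPKM of the Oas1 paralogs in both groups, although Oas1c exceeded it in overexpressing replicate 2 (1.04 FPKM, against 0.983 for Oas1a). It had 2.66, 1.88 and 2.45 CPM in the libraries labelled overexpressing, against 29.0, 22.5 and 26.9 CPM in the libraries labelled mock. The highest of the first 3 libraries was thus far below the lowest mock library. The mean was 11.2-fold lower; the fitted log2 fold change was -3.47 (SE 0.152, 95% interval -3.79 to -3.16, edgeR adjusted p = 1.67e-14). Oas1g, the other active synthetase among them, had 3, 3 and 0 counts in the libraries labelled overexpressing and 83, 42 and 48 counts in those labelled mock. It was close to undetected in the first group, where no library exceeded the level of 3 counts. Summed over libraries, the 6 counts in those labelled overexpressing stood against 173 in those labelled mock, a count ratio of 29.9 with an exact interval of 13.4 to 82.5 that covers counting error only. Its log2 fold change was -4.81 (SE 0.522, edgeR adjusted p = 1.00e-07). The ratio of mean CPM for Oas1g was 29.4 with all libraries and 19.6 without overexpressing replicate 3, the library with 0 counts.

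Oas1a and Oas1g could exchange reads. Of the 50-base stretches in the annotated Oas1a transcripts, 1057 of 1836 (57.6%) also occurred in Oas1g, and 1068 of the 2336 stretches of Oas1g (45.7%) occurred in another gene. Their main transcripts were identical at 97.8% of 1857 aligned bases, compared with 77.2% to 81.6% for the other pairs of Oas1 members. How reads mapping to both were counted was not given in the sources used here, so the split between Oas1a and Oas1g is uncertain. Both were lower, and so were their summed counts, which were 131 in the libraries labelled overexpressing and 1515 in the libraries labelled mock.

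Oas1b is the mouse flavivirus resistance gene; its protein lacks synthetase activity, and many laboratory strains carry a truncated form. It had 0.904, 0.971 and 0.611 CPM in the libraries labelled overexpressing, against 7.27, 5.62 and 7.66 CPM in those labelled mock. The mean was 8.26-fold lower; the fitted log2 fold change was -3.04 with an SE of 0.252 (edgeR adjusted p = 1.40e-09). Only 2.98% of its 50-base stretches occurred in other genes. Oas1c, the divergent partner of Oas1b, stood apart from the other members by the size of its difference. It had 2.07, 2.55 and 2.11 CPM in the libraries labelled overexpressing and 6.13, 4.54 and 4.01 CPM in those labelled mock. The groups were separate, but by less than for any other member: the mean was 2.18-fold lower and the fitted log2 fold change -1.13 (SE 0.228, 95% interval -1.60 to -0.66, edgeR adjusted p = 0.000309). Ordered from the lowest log2 fold change among the 14502 genes tested, Oas1c was at place 612, whereas the other members were between places 10 and 84. The intervals of Oas1c and Oas1b, -1.60 to -0.66 and -3.56 to -2.51, did not overlap, although their start sites are 120 bases apart; the difference between them was not tested. Oas1c shared 15.1% of its 50-base stretches with 5 other genes, 4 of them Oas1 paralogs. Of the 371 shared stretches, 149 occurred in Oas1e, 68 in Oas1d, 35 in Oas1f and 6 in Oas1h. The rest occurred only in a gene outside the family. Oas1e had 0 counts in every library and Oas1d had 0 in the libraries labelled overexpressing.

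Oas2 and Oas3 encode the larger synthetases, built from repeated OAS units. Oas3 had the largest difference of the family. Its counts were 5, 7 and 11 in the libraries labelled overexpressing and 532, 374 and 480 in those labelled mock. In CPM it averaged 0.434 ± 0.173 in the libraries labelled overexpressing and 27.0 ± 5.03 in those labelled mock (SD, n = 3 each). The log2 fold change was -5.94 (SE 0.225, 95% interval -6.41 to -5.47, edgeR adjusted p = 1.38e-15), the tenth lowest among genes tested. Oas2 had 12, 10 and 9 counts in the libraries labelled overexpressing, against 383, 304 and 392 in those labelled mock. Its mean CPM was 36.2-fold lower, and the fitted log2 fold change was -5.16 (SE 0.207, edgeR adjusted p = 3.74e-15). The intervals of the Oas2 and Oas3 count ratios, 25.2 to 53.3 and 41.4 to 98.8, overlapped.

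The OAS-like genes carry ubiquitin-like domains. In the mouse, Oasl2 keeps synthetase activity, while Oasl1 lacks it and represses translation of the mRNA of Irf7, a transcription factor that drives interferon genes. Oasl2 took the most counts of the family, with 4.79, 6.25 and 7.17 CPM in the libraries labelled overexpressing and 180, 152 and 180 CPM in those labelled mock. Its log2 fold change was -4.81 (SE 0.105, 95% interval -5.03 to -4.60, edgeR adjusted p = 1.00e-19), the most precise estimate in the family. Oasl1 had 1.65, 1.88 and 1.89 CPM in the libraries labelled overexpressing, against 23.6, 22.0 and 25.4 CPM in those labelled mock. The log2 fold change of Oasl1 was -3.71 (SE 0.147, edgeR adjusted p = 2.89e-15), and its interval, -4.01 to -3.40, did not overlap that of Oasl2. None of the 50-base stretches of Oasl1 and 0.138% of those of Oasl2 occurred in another gene.

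On the scale of FPKM (counts scaled to gene length and library depth, as deposited by the authors), levels of different genes can be set side by side. In the libraries labelled overexpressing the order was Oas1a (1.22 ± 0.216 FPKM), Oasl2 (0.942 ± 0.186), Oas1c (0.924 ± 0.104), Oasl1 (0.686 ± 0.050), Oas1b (0.412 ± 0.094), Oas2 (0.129 ± 0.016), Oas3 (0.061 ± 0.024) and Oas1g (0.048 ± 0.042; SD, n = 3 each). Oas1a overlapped Oasl2 and Oas1c, Oasl2 overlapped Oas1c, and Oas3 overlapped Oas1g over the 3 libraries. In the libraries labelled mock the order was Oasl2 (26.6 ± 2.41 FPKM), Oas1a (13.8 ± 1.72), Oasl1 (9.03 ± 0.605), Oas2 (4.71 ± 0.770), Oas3 (3.80 ± 0.695), Oas1b (3.42 ± 0.528), Oas1c (2.03 ± 0.456) and Oas1g (1.43 ± 0.514). There Oas2 overlapped Oas3, Oas3 overlapped Oas1b, and Oas1c overlapped Oas1g. The seventh place of Oas1c in the mock libraries thus became the third in the libraries labelled overexpressing.

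The make-up of the family differed accordingly. Oas1c made up 19.4% to 23.4% of the summed FPKM of the 8 members in the libraries labelled overexpressing and 2.43% to 3.64% in those labelled mock. Oasl2 made up 17.2% to 24.8% in the libraries labelled overexpressing and 40.3% to 42.0% in those labelled mock. These were the members whose shares differed most, in opposite directions. Oas3 contributed 0.863% to 1.91% in the libraries labelled overexpressing, against 5.28% to 6.12% in those labelled mock. The shares of Oas1a, 22.1% to 32.4% in the libraries labelled overexpressing and 20.8% to 22.0% in those labelled mock, were separated only narrowly. Shares in the libraries labelled overexpressing rest on 243 to 276 counts for the whole family and are less precise than those in the mock libraries, which rest on 4363 to 5334.

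**Figure D3:**
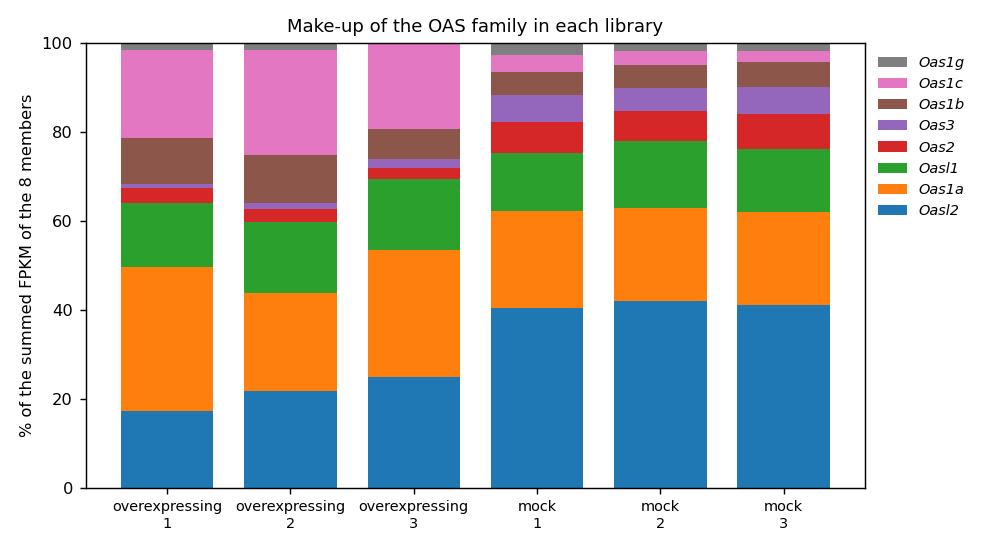
Percent of the summed FPKM of the 8 members contributed by each, in each library (the 3 labelled overexpressing on the left, the 3 labelled mock on the right). Oas1c takes 19.4% to 23.4% of the bars on the left and 2.43% to 3.64% of those on the right, and Oasl2 takes 17.2% to 24.8% on the left and 40.3% to 42.0% on the right.

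The libraries of a group differed less than the groups did. Mock replicate 1 was the highest mock library for 5 members, mock replicate 3 for 3 and mock replicate 2 for 0, while among all genes tested each was highest for 30.8% to 36.3%. In the libraries labelled overexpressing, replicates 1, 2 and 3 were highest for 2, 3 and 3 members.

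All 8 members lie on chromosome 5. Oasl2 and Oasl1 occupy 115034997 to 115075974 on the plus strand (mm39), and the other 6 lie between 120868398 and 121045584, in the order Oas2, Oas3, Oas1c, Oas1b, Oas1g and Oas1a. Each is annotated as protein coding. Of the 12 nearest tested protein-coding genes around the clusters, 3 on each side of each, 6 were higher and 1 was lower in the libraries labelled overexpressing. Among all genes tested, 22.3% were higher and 23.0% lower. The lower gene was Rpl6, a ribosomal protein gene with near-identical pseudogene copies, at a log2 fold change of -0.48 (edgeR adjusted p = 1.82e-07). The neighbours ranged from -0.89 for Rph3a (adjusted p = 0.110, at about 1 CPM) to 0.61 for Tpcn1. The higher genes were Git2 (0.58), Ankrd13a (0.25), Tpcn1 (0.61), Rita1 (0.43), Sppl3 (0.17) and Ptpn11 (0.15). The calls of the last 3 were lost when single libraries of either group were left out, with adjusted p of up to 0.0899 for Rita1 (without mock replicate 2), 0.132 for Sppl3 (without mock replicate 2) and 0.139 for Ptpn11 (without overexpressing replicate 3). Without overexpressing replicate 2, Rph3a was called lower as well (-1.60, adjusted p = 0.0135). The closest gene, 2210016L21Rik, began 4.24 kb beyond Oasl1 and had a log2 fold change of -0.20 (adjusted p = 0.112). Within the Oas cluster, the paralogs Oas1e and Oas1f had 0 counts in all libraries. Oas1d had 0 counts in the libraries labelled overexpressing and 7 in those labelled mock, 6 of them in replicate 2, and Oas1h had 0 in the libraries labelled overexpressing and 1 in those labelled mock, so that neither was tested.

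**Figure D4:**
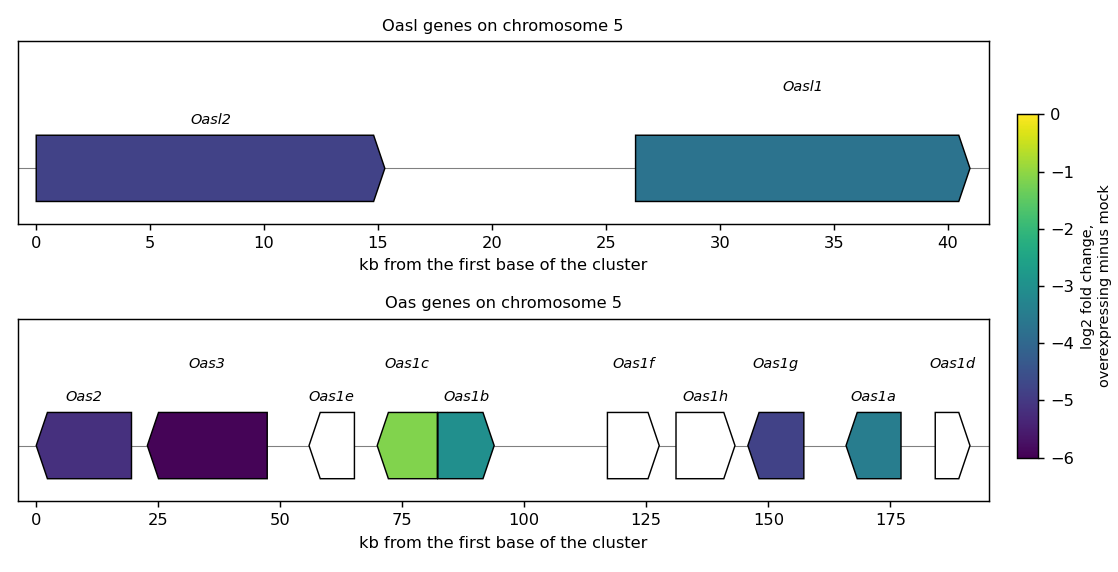
Map of both clusters on chromosome 5, in kb from the first base of each cluster, with arrows pointing along transcription and coloured by log2 fold change, labelled overexpressing minus labelled mock; white arrows were not tested. The darkest arrow is Oas3 (-5.94) and the palest is Oas1c (-1.13), which lies back to back with Oas1b (-3.04).

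Genes that act on the 2-5A pathway downstream of the synthetases differed less than the members. Of the 3 measured here, 1 was higher and 1 lower, with a median log2 fold change of 0.04. Pde12, a phosphodiesterase that degrades 2-5A, averaged 52.0 ± 3.24 CPM in the libraries labelled overexpressing and 40.1 ± 3.30 CPM in those labelled mock (log2 fold change 0.37, SE 0.080, edgeR adjusted p = 0.00056). Akap7, which also has 2-5A-degrading activity in the mouse, had a log2 fold change of 0.04 with an interval of -0.25 to 0.32. Abce1, known for recycling ribosomes and also described as a regulator of the 2-5A pathway, averaged 194 ± 12.1 CPM in the libraries labelled overexpressing and 220 ± 12.7 CPM in those labelled mock (log2 fold change -0.18, edgeR adjusted p = 0.0169). The Abce1 call was lost without overexpressing replicate 1 (adjusted p = 0.133), without mock replicate 1 (0.0957) or without mock replicate 2 (0.0642), and with library size only (0.348).

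Genes of a list for double-stranded RNA sensing were mostly lower. The list holds sensors and also adaptors and other linked proteins. Of the 14 in the list, 13 were tested, 8 were lower and 2 higher, with a median log2 fold change of -1.08. Zbp1, a sensor of left-handed RNA that can trigger cell death, averaged 2.42 ± 0.761 CPM in the libraries labelled overexpressing and 78.0 ± 8.87 CPM in those labelled mock. Its log2 fold change of -5.02 (edgeR adjusted p = 6.13e-18) lay between those of Oas3 and the OAS-like genes. The RIG-I-like receptors were lower by less: Dhx58 (LGP2) had a log2 fold change of -3.20, Ifih1 (MDA5) of -2.32 and Ddx58 (RIG-I) of -1.91. Eif2ak2, the kinase PKR that halts translation on double-stranded RNA, averaged 65.7 ± 3.51 CPM in the libraries labelled overexpressing and 139 ± 6.90 CPM in those labelled mock, a log2 fold change of -1.08. Mov10, Tlr3 and the RNA-editing enzyme Adar were also lower, with log2 fold changes of -1.41, -1.39 and -0.74.

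The pair of higher genes in that list, named after their values were seen, are adaptor proteins: Mavs, which relays signals from RIG-I and MDA5, had a log2 fold change of 0.50 (edgeR adjusted p = 2.01e-05), and Ticam1, the adaptor of Tlr3, of 0.24 (adjusted p = 0.0440). The Ticam1 call was lost with DESeq2 (adjusted p = 0.123), without the low-count filter (0.107), and without overexpressing replicate 1 (0.113), overexpressing replicate 3 (0.102), mock replicate 1 (0.186) or mock replicate 2 (0.128).

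The genes of interferon signalling were mostly lower, and their part in the differences of the family was not tested. Of 18 in the list, 17 were tested, 13 were lower and 1 higher, with a median log2 fold change of -0.56. Stat2 and Irf9 of the ISRE-binding complex were lower, with log2 fold changes of -1.93 and -1.63. Irf7 and Usp18, both themselves induced by interferon, had the largest differences. Irf7 averaged 6.32 ± 0.647 CPM in the libraries labelled overexpressing and 148 ± 16.6 CPM in those labelled mock (log2 fold change -4.55, edgeR adjusted p = 1.00e-19). Usp18, which limits receptor signalling, averaged 5.30 ± 0.946 CPM in the libraries labelled overexpressing and 119 ± 14.6 CPM in those labelled mock (log2 fold change -4.50, edgeR adjusted p = 1.09e-18). The receptor subunit Ifnar2 (-0.86), the feedback inhibitor Socs3 (-1.46) and the transcription factor Irf1 (-1.04) were lower by less. Ifngr1, a subunit of the interferon gamma receptor, had a log2 fold change of -0.56. Ifnar1, the partner subunit of Ifnar2 and named after its value was seen, had a log2 fold change of -0.03 (adjusted p = 0.762). The 1 higher gene, named after its value was seen, was the receptor kinase Tyk2 (0.41, adjusted p = 0.0035).

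**Figure D5:**
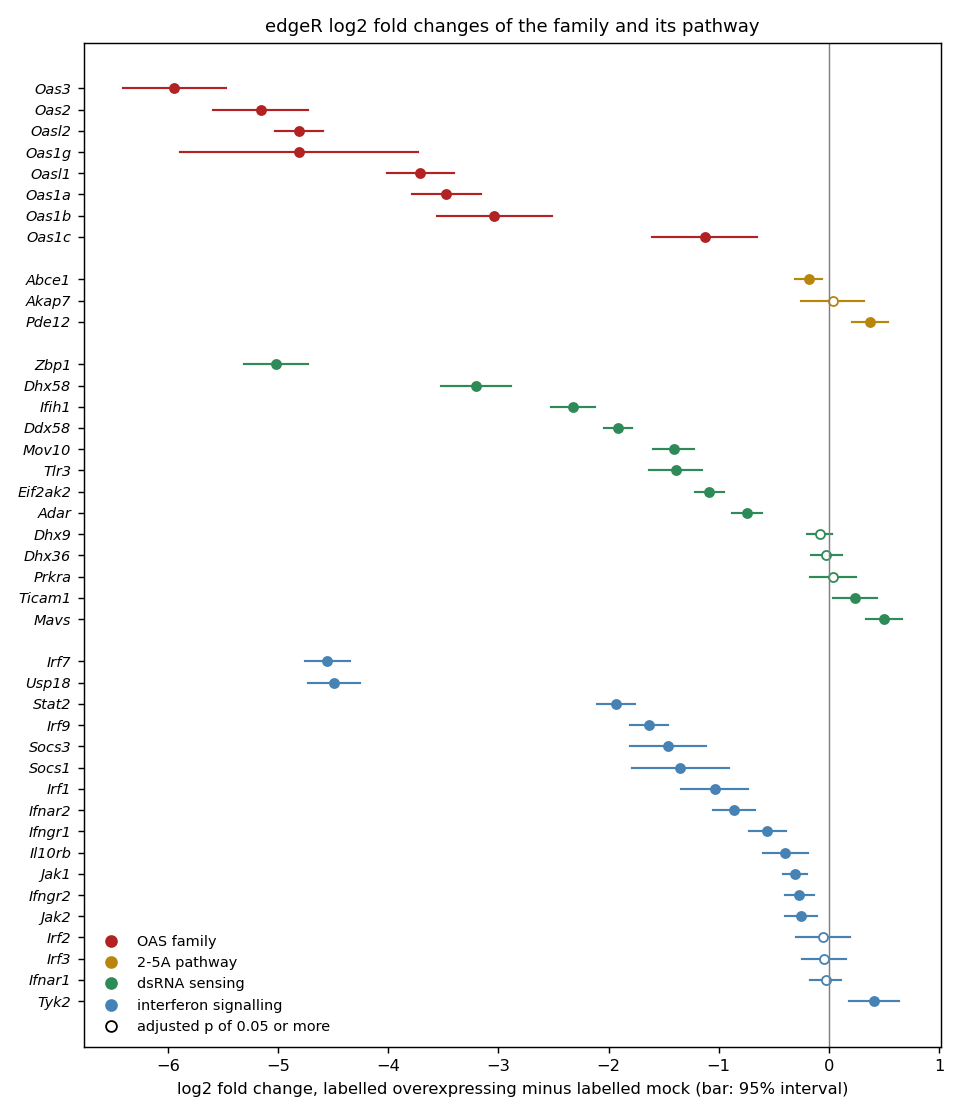
Log2 fold change, labelled overexpressing minus labelled mock, with its 95% interval. Shown are the members, the 2-5A pathway, the list for double-stranded RNA sensing and interferon signalling. Open points have an adjusted p of 0.05 or more. The members run from -5.94 (Oas3) to -1.13 (Oas1c), while the 2-5A pathway genes lie between -0.18 and 0.37.

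Interferon transcripts themselves were near the limit of detection. Of 21 interferon genes, 18 had 0 counts in every library, and none passed the filter. Ifnb1, which encodes interferon beta, had 0 counts in the libraries labelled overexpressing and 5 in those labelled mock, all in replicate 2. Ifng, for interferon gamma, had 0 counts in the libraries labelled overexpressing and 2, 0 and 1 in those labelled mock. Ifnz, for interferon zeta, went the other way, with 0, 2 and 16 counts in the libraries labelled overexpressing and 1, 5 and 1 in those labelled mock, most of them in a single library. A gene with 0 counts in a library could still have been present at up to 0.160 to 0.185 CPM.

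The genes whose profile over the 6 libraries was nearest to the median profile of the members were Gbp9, Ddx60, Trim30a, Slfn8 and Gbp3, out of 10043 candidates with a mean of at least 5 CPM. The measure was the Euclidean distance between centred log2 CPM profiles, which was 0.396 for Gbp9, 0.465 for Ddx60, 0.517 for Trim30a, 0.517 for Slfn8 and 0.596 for Gbp3. Their log2 fold changes were -3.73, -3.70, -3.70, -3.80 and -4.13. The members themselves were at 0.477 (Oasl1) to 3.35 (Oas1c) from their own median profile.

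Apol9a and Apol9b, named after the promoter search because they hold the 16-base element of Oas1a, were lower as well. Whether this pair could exchange reads was not measured, so their values may not be independent. Apol9a averaged 6.21 ± 0.953 CPM in the libraries labelled overexpressing and 56.5 ± 5.65 CPM in those labelled mock (SD, n = 3 each; log2 fold change -3.18, edgeR adjusted p = 3.77e-16). Apol9b averaged 3.85 ± 0.673 CPM in the libraries labelled overexpressing and 40.9 ± 4.23 CPM in those labelled mock (log2 fold change -3.40, edgeR adjusted p = 8.85e-16). Leaving out the members, 123 of the 197 genes called with a log2 fold change of -2 or less had a RefSeq promoter. An ISRE core lay in at least 1 promoter of 39 of these 123 genes (31.7%). Among all genes tested, this held for 390 of the 10486 genes with a promoter (3.72%). These shares count genes, some with several promoters, and not single promoters. No share was taken for the genes called higher. The part of the ISRE core or the 16-base element in these differences was not tested.

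Markers of other cell types were also measured. Of 9 macrophage markers 4 were tested and 1 was lower, with summed levels of 16.9 to 20.6 CPM in the libraries labelled overexpressing and 21.7 to 25.2 CPM in those labelled mock. The lower gene, Csf1r, averaged 8.42 CPM in the libraries labelled overexpressing and 13.1 CPM in those labelled mock. The tested Cd68, Lyz2 and Cd14 were not called different. They averaged 3.95, 2.65 and 2.93 CPM in the libraries labelled overexpressing, and 3.14, 3.90 and 2.20 CPM in those labelled mock. Ptprc and Adgre1 had 5 and 0 counts in all in the libraries labelled overexpressing, and 8 and 5 in those labelled mock. None of 8 lymphocyte markers passed the filter, and 3 were at 0. Endothelial markers summed to 21.6 to 22.6 CPM in the libraries labelled overexpressing and 15.3 to 18.9 CPM in those labelled mock, with 1 of 4 tested higher (Tek) and 1 lower (Pecam1). Tek carried that sum: without it, the endothelial markers summed to 6.07 to 6.78 CPM in the libraries labelled overexpressing and 10.3 to 12.7 CPM in those labelled mock. Of 5 adipocyte markers 2 were tested, Pparg was higher (log2 fold change 1.07) and Fabp4 lower (-0.71), with Lep at 0 and summed levels of 41.6 to 43.2 CPM in the libraries labelled overexpressing and 26.5 to 29.8 CPM in those labelled mock. Of 6 plasmacytoid dendritic cell markers 2 were tested and both, Bst2 (log2 fold change -3.41) and Tcf4 (-0.33), were lower, with Siglech at 0. The 6 summed to 79.2 to 88.7 CPM in the libraries labelled overexpressing and 430 to 465 CPM in those labelled mock. Bst2 carried most of that difference. The untested Irf8, Ccr9 and Ly6d were near the floor in both groups. They averaged 0.204, 0.172 and 0.019 CPM in the libraries labelled overexpressing, and 0.359, 0.161 and 0.076 CPM in those labelled mock. Schwann cell markers were lower too, in 5 of 6 tested, out of 8. Their summed levels were 4.68 to 5.11 CPM in the libraries labelled overexpressing and 29.0 to 35.2 CPM in those labelled mock. The part of any of these cell types in the differences of the family was not tested.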

How the data were processed

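The submitters' processing notes list featureCounts 1.5.0-p3, StringTie 1.3.3b, HISAT2 2.0.5, fastp and mouse build mm39, without the role of each. Not given in the sources used here: annotation release, strand setting and the treatment of reads mapping to several genes. The table deposited by the authors holds raw counts, FPKM values, gene lengths, group means (a signal of counts divided by size factors), and log2 fold changes with p-values of their own. In the authors' deposited table, the log2 fold changes of the members differed from those fitted here by at most -0.091 (Oas1g).

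Groups and replicate numbers came from the sample titles. Counts were fitted with edgeR (version 4.0.16, R version 4.3.3) by the quasi-likelihood test with TMM factors, filterByExpr at a minimum count of 10, group as the only term, and Benjamini-Hochberg adjustment over 14502 genes at 0.05. Standard errors are |log2 fold change| over the root of the F statistic. Floors are 3 counts, and count-ratio intervals are exact at 95%; both cover counting error only. FPKM levels and shares are descriptions. Simulated counts of 14284 genes held 100 genes changed 2-fold and 100 changed 1.5-fold. Of these changes, 96% and 69% were recovered, and 5.71% of calls were false. Far more genes were called in the data (45.3% of those tested), so these rates may not carry over. Replicates differed by more than sampling noise, with a chi-square of 3.55 to 7.47 per degree of freedom. Promoter sequences are from RefSeq (GRCm38.p6). Transcript stretches of 50 bases are from GENCODE M21 and were searched with Python (version 3.11.15), pandas (version 2.3.3) and Biopython (version 1.88). Members and gene lists were chosen with earlier results of these data known. The genes named are the members, the other Oas1 genes, up to 8 genes of each pathway list by smallest p, the integrin subunits, 3 tested neighbours on each side of a cluster and the 5 genes nearest in profile. Marker genes of cell types were also named. Other exceptions are stated where they occur. Alternatives were RLE factors, library size only, no filter, a replicate block, DESeq2 (version 1.42.0), each library left out in turn, and TPM for levels. Replicate numbers did not pair the libraries. Protein sequences were not analysed here, and some genes of the pathway lists are not reported here.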

Additional observations from a re-analysis of the deposited data

How the results depend on the processing

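All 8 members were called lower in each of the 11 alternatives, and their log2 fold changes stayed between -6.28 and -5.67 for Oas3 and between -1.25 and -0.93 for Oas1c, the member with the smallest difference (highest adjusted p 0.00513, edgeR or DESeq2). Without TMM factors (library size only), the median gene stood at a log2 fold change of 0.116, and 4598 genes were higher and 2385 lower, against 3233 higher and 3339 lower with TMM factors. With library size only, 0 genes of the 2-5A pathway were lower, against 1 with TMM factors; the shift of all genes is part of that scaling. When each library was left out in turn, the number of lower 2-5A pathway genes ranged from 0 to 1. In the list for double-stranded RNA sensing, 1 gene was higher without the filter and 1 with DESeq2. There were 2 with edgeR and the filter, and 1 to 2 when each library was left out. The cause was not tested. With the replicate number as a block, 3183 genes were higher and 3297 lower, and the members kept 8 lower calls. The numbers do not pair the libraries: same-numbered libraries correlated at 0.010, 0.016 and 0.003 in their deviations from the group means. The order of the members by level kept all 16 places with TPM. Both units divide counts by the same gene lengths, so the order within a library could not change, and this does not check it. Depth limits Oas1g, Oas3 and Oas2, which had 6, 23 and 31 counts in all in the libraries labelled overexpressing.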
